A study of Mus musculus with 9 samples.

Results

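The apolipoproteins and the transfer protein that loads them with lipid were followed through 10 genes (Apoa1, Apoa2, Apoa4, Apoa5, Apob, Apoc1, Apoc2, Apoc3, Apoe, and Mttp), chosen by name out of the 23183 genes in the deposited tables. All 10 had values above 0 in every liver. RNA was sequenced from the livers of 9 male mice of the inbred strain C57BL/6J, with 1 library per mouse and 3 mice per group, labelled as postnatal day 100 and fasted for 8 h. The ND group (mice 6, 7, and 9) ate a normal diet with 14% fat for 10 weeks, and the HFD group (mice 1, 2, and 3) a high-fat diet with 60% fat for 10 weeks. The PRF 50 group (mice 3, 9, and 10) ate the same high-fat diet and received 50 mg/kg of PRF by mouth each day during the last 5 weeks. PRF is a fraction rich in polymethoxyflavones from the leaves of Jinkyool (Citrus sunki). The mouse numbers do not pair animals between groups.

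Lipoproteins carry triglyceride and cholesterol through the blood in particles with a coat of apolipoproteins. The liver builds very-low-density lipoprotein (VLDL) around a single copy of apolipoprotein B, which is lipidated in the endoplasmic reticulum by the microsomal triglyceride transfer protein, the product of Mttp. Apolipoproteins A-I and A-II form the frame of high-density lipoprotein (HDL), and the smaller exchangeable apolipoproteins move between particles and govern lipases and receptors.

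All values are on the log2(FPKM + 1) scale, where FPKM is the number of sequenced fragments divided by transcript length and by library size. The identity of the tissue was checked against 8 hepatocyte markers. Of the 7 found in the tables, transthyretin (Ttr) was the most abundant, between 11.97 and 12.84, and the summed linear level of the list lay between 9430 and 12900 in single livers. Albumin (Alb) was listed at 0 in all 9 livers, which in these files may be a failed estimate. Of 8 enterocyte markers, included because the intestine also makes Apoa4, Apoa1, Apob, and Mttp, 7 were listed at 0 in all 9 livers, and the remaining one, Vil1, did not exceed 0.12.

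The library of ND mouse 6 stood apart from the others by transcript length. Among 9673 genes with an annotated length, the median deviation of ND mouse 6 from the mean of the 9 livers was 0.31 for transcripts under 700 bases, 0.25 from 700 to 1500 bases, 0.07 from 1500 to 4000 bases, and -0.09 over 4000 bases. HFD mouse 1 went from 0.15 to 0 over the same classes, and PRF 50 mouse 9 ran the other way, from -0.23 to 0.02. The short genes Apoa2, Apoc1, Apoc3, Apoc2, Apoa1, and Apoe had their highest ND value in mouse 6, as did Apoa5 with 2515 bases. Apob, whose longest transcript has 13934 bases, had its lowest ND value there. Apoa4 (1815 bases) and Mttp (3963 bases) had their middle ND value in mouse 6. Whether transcript length caused any group difference was not tested, and the HFD vs. ND difference of each member is given with and without ND mouse 6.

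**Figure D1:**
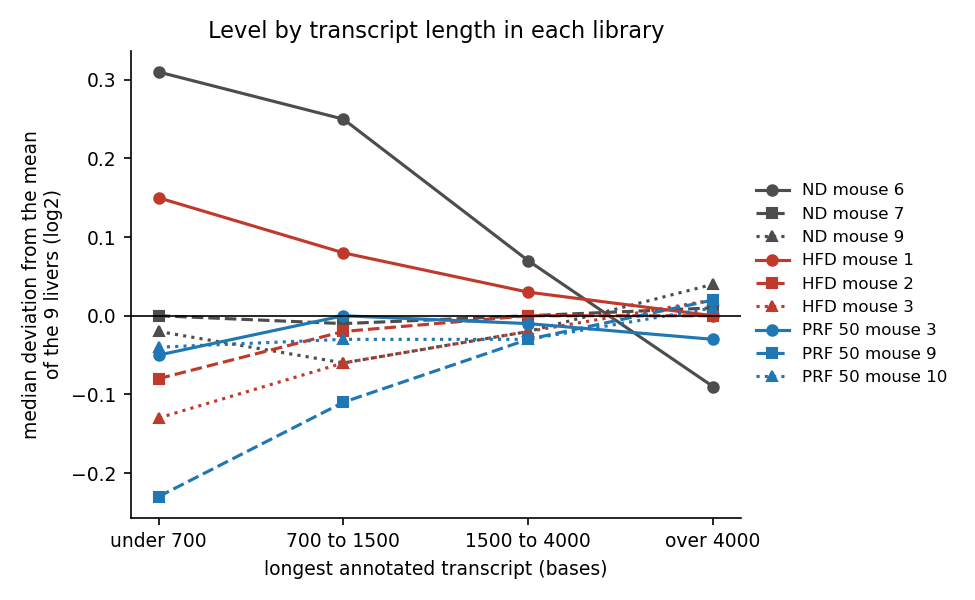
Median deviation of each library from the mean of the 9 livers (log2) for genes grouped by the length of their longest annotated transcript in bases, with 1 line per mouse. ND mouse 6 falls from 0.31 to -0.09 and PRF 50 mouse 9 rises from -0.23 to 0.02.

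Apoa4 was the member that separated the diets most widely. Its level was 7.24-fold higher in HFD than in ND livers and 4.27-fold lower in PRF 50 than in HFD livers. It was the only member with an adjusted p under 0.05 in limma in either comparison, 1 of 10 against 1.33% of the 9978 genes tested for HFD vs. ND and 3.59% of the 10084 genes tested for PRF 50 vs. HFD. For PRF 50 vs. ND, limma called 0 of 10 members, where 0.458% of 10051 genes were called, and 3 members (Apoa4, Apoa5, and Mttp) had an unadjusted p under 0.05, as did 12.5% of all genes. The unadjusted p was under 0.05 for 2 members (Apoa4 and Apoc2) in HFD vs. ND and for 4 (Apoa2, Apoa4, Apoc2, and Mttp) in PRF 50 vs. HFD, beside 15.1% and 20.2% of all genes. Leaving out ND mouse 6 gave 2 called members (Apoa4 and Apoc2) in HFD vs. ND, beside 63 of 10001 genes. In PRF 50 vs. HFD no member was called without HFD mouse 1, 2, or 3 or PRF 50 mouse 3 or 10. Over all genes, 15 to 215 were called in those fits, against 362 with all mice. HFD vs. ND and PRF 50 vs. HFD share the 3 HFD mice, so their values are given side by side and are not independent.

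The values of the 3 mice did not overlap between HFD and ND for 3 of 10 members (Apoa4, Apob, and Apoc2), against 20.7% of all genes and 10% expected by chance for 3 values against 3, with HFD higher in each, which held for 10.7% of all genes. Without ND mouse 6 this count was 7 of 10, with Apoa2, Apoc1, Apoc3, and Apoe added, where 34.8% of all genes did not overlap and chance gives 20% for 2 values against 3. Between PRF 50 and HFD, 8 of 10 did not overlap (26.2% of all genes), and in all 8 the PRF 50 mice were lower (15.3% of all genes), whereas Apoa1 and Apoa5 overlapped. After quantile normalization, 5 members rather than 8 did not overlap (24.7% of all genes). Between PRF 50 and ND, Apoa5 and Mttp did not overlap, 2 of 10 members against 19.9% of all genes, and both were lower in PRF 50, as in 11.8% of all genes. Without ND mouse 9 this count was 4, against 35.3% of all genes. The median log2 difference of the 10 members was 0.16 in HFD vs. ND, -0.37 in PRF 50 vs. HFD, and -0.12 in PRF 50 vs. ND, beside -0.01, -0.02, and -0.03 over all genes tested. Without ND mouse 6 it was 0.23 in HFD vs. ND, and in PRF 50 vs. ND its sign turned, to 0.02, beside 0 and -0.03 over all genes. In HFD vs. ND it was 0.08 without ND mouse 9, and in PRF 50 vs. ND it was -0.26 without ND mouse 9 and -0.18 without ND mouse 7. Quantile normalization gave 0.07 in HFD vs. ND and 0.02 in PRF 50 vs. ND, and a correction for transcript length, chosen after seeing the data, gave 0.03 in PRF 50 vs. ND.

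**Figure D2:**
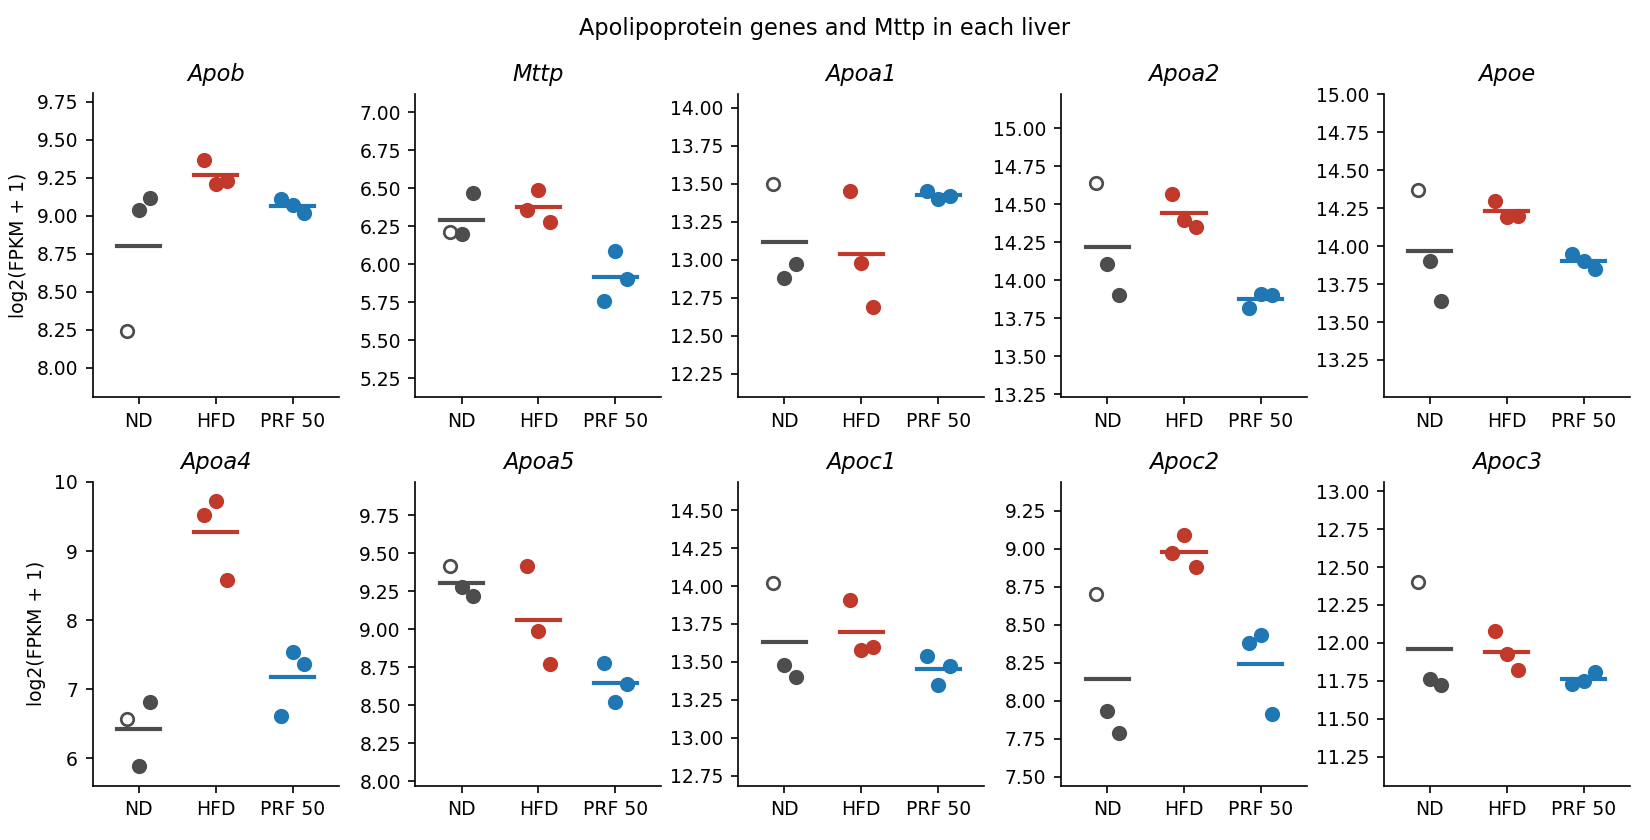
Values of the 10 genes in each liver on the log2(FPKM + 1) scale, with 1 point per mouse and a line at the mean of each group of 3. The open point is ND mouse 6, and each panel spans 2 log2 units except Apoa4, which spans 4.4. The HFD mice lie above 8.5 for Apoa4, and all ND and PRF 50 mice lie below 7.6.

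Apob encodes the structural protein of VLDL, of which each particle holds a single molecule. Its values were 8.24, 9.04, and 9.12 in ND mice 6, 7, and 9, then 9.37, 9.21, and 9.23 in HFD mice 1, 2, and 3, and 9.11, 9.07, and 9.02 in PRF 50 mice 3, 9, and 10. ND mouse 6 was far below all other livers, and the remaining 8 lay close together. In limma, Apob differed by 0.46 (standard error 0.23, adjusted p = 0.41) in HFD vs. ND, which became 0.18 (adjusted p = 0.522) without ND mouse 6. Its difference was -0.2 in PRF 50 vs. HFD (standard error 0.1, adjusted p = 0.347), and each PRF 50 value was under each HFD value. The PRF 50 and ND groups differed by 0.26, or by -0.02 without ND mouse 6 and 0.42 without ND mouse 9. Quantile normalization gave -0.11 in PRF 50 vs. HFD and 0.48 in PRF 50 vs. ND.

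Mttp, which hands lipid to the growing apolipoprotein B, had the lowest mean level of the 10 members over the 9 livers. Its values were 6.21, 6.20, and 6.47 in the ND mice, 6.36, 6.49, and 6.28 in the HFD mice, and 5.76, 6.09, and 5.90 in the PRF 50 mice, in the same order of animals. Every PRF 50 value lay below every value of the other groups, while ND and HFD values were interleaved. The log2 difference was -0.46 in PRF 50 vs. HFD (standard error 0.11, adjusted p = 0.0737) and -0.38 in PRF 50 vs. ND (standard error 0.13, adjusted p = 0.298), neither below 0.05. It was 0.09 in HFD vs. ND (standard error 0.12, adjusted p = 0.782). Without ND mouse 6, the difference was -0.42 in PRF 50 vs. ND (adjusted p = 0.39) and 0.04 in HFD vs. ND (adjusted p = 0.901). The latter was 0.04 without ND mouse 7, 0.17 without ND mouse 9, and 0.03 without HFD mouse 2.

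Apoa1 and Apoa2 encode the main HDL proteins, and their order among the groups was not the same. Apoa1 was 13.50, 12.88, and 12.97 in the ND mice, 13.45, 12.98, and 12.69 in the HFD mice, and 13.45, 13.40, and 13.42 in the PRF 50 mice. The ND and HFD mice scattered over the same range, and the PRF 50 mice were tightly grouped near its upper end. Its difference was 0.39 (standard error 0.24, adjusted p = 0.422) in PRF 50 vs. HFD and -0.08 (standard error 0.28, adjusted p = 0.927) in HFD vs. ND, where it turned to 0.12 without ND mouse 6 and to 0.1 without HFD mouse 3. The first was 0.59 without HFD mouse 1 and 0.21 without HFD mouse 3, and the second -0.28 without HFD mouse 1, -0.05 without HFD mouse 2, -0.2 without ND mouse 7, -0.15 without ND mouse 9, 0 after quantile normalization, and -0.01 with the length correction. It was 0.31 in PRF 50 vs. ND (standard error 0.23, adjusted p = 0.593) and, without ND mouse 6, 0.5 (adjusted p = 0.359) with no overlap, and 0.19 without ND mouse 7. Apoa2, the most abundant member by the mean over the 9 livers, though not in the PRF 50 group, where it averaged 13.88 and Apoe 13.90, was 14.64, 14.11, and 13.90 in the ND mice, 14.57, 14.40, and 14.35 in the HFD mice, and 13.82, 13.91, and 13.90 in the PRF 50 mice. All PRF 50 mice lay below all HFD mice, and ND mice spanned both groups. Apoa2 differed by -0.56 in PRF 50 vs. HFD (standard error 0.2, adjusted p = 0.183). It passed the threshold in 2 of the alternative fits, with adjusted p = 0.0463 at a minimum level of 10 FPKM and 0.03 in eBayes without a trend, and the adjusted p reached 0.691 with no minimum level. Its difference was 0.23 in HFD vs. ND (adjusted p = 0.749) and 0.44 (adjusted p = 0.455) without ND mouse 6, but 0.07 without ND mouse 9 and 0 after quantile normalization, which gave -0.89 in PRF 50 vs. HFD (adjusted p = 0.205).

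Apoe, the ligand through which remnant particles enter cells by receptors of the LDL receptor family, was 14.37, 13.90, and 13.64 in the ND mice, 14.30, 14.19, and 14.20 in the HFD mice, and 13.95, 13.90, and 13.85 in the PRF 50 mice. HFD and PRF 50 mice were separated, with PRF 50 lower, and the ND mice spread beyond both groups. The log2 difference was -0.33 in PRF 50 vs. HFD (standard error 0.2, adjusted p = 0.406) and 0.26 in HFD vs. ND (standard error 0.27, adjusted p = 0.693), or 0.46 without ND mouse 6 (adjusted p = 0.414). The latter comparison gave 0.1 without ND mouse 9 and 0.07 after quantile normalization. After quantile normalization, the difference in PRF 50 vs. HFD was -0.05 (adjusted p = 0.916), and over the other alternatives the adjusted p ran from 0.0848 to 0.816. Kupffer cells and other macrophages also make Apoe, and their markers ran the opposite way. Of 11 such markers, 10 were called higher in PRF 50 vs. HFD and 0 lower, beside 3.59% of all genes. Their median log2 difference there was 1.45. In HFD vs. ND limma called 0, and 0 had an unadjusted p under 0.05, beside 15.1% of all genes. Limma also called 0 in PRF 50 vs. ND, where 11 had an unadjusted p under 0.05, beside 12.5% of all genes. In that comparison 2 were called without ND mouse 9 and 1 without PRF 50 mouse 9. Over all genes, 59 and 26 were called in these fits. Their summed linear level was 94.7, 178, and 222 in the ND mice, 115, 181, and 183 in the HFD mice, and 622, 378, and 403 in the PRF 50 mice, and Cd5l was the most abundant. The 10 called were Clec4f, Cd5l, Vsig4, Timd4, Adgre1, Csf1r, Cd68, C1qa, C1qb, and C1qc, with differences from 0.99 for Cd68 to 1.6 for Adgre1, and Marco was not called. The number called was 7, 1, and 0 without HFD mouse 1, 2, or 3 and 1, 9, and 5 without PRF 50 mouse 3, 9, or 10. Over all genes tested, 215, 31, and 15 were called without HFD mouse 1, 2, or 3, against 362 with all mice. Without PRF 50 mouse 3, 9, or 10, the number over all genes was 40, 242, and 168. The differences of the 10 genes were at least 0.91 in each of these fits. In bulk liver, fewer cells of a type and less RNA per cell cannot be told apart, and the part of macrophages in the Apoe level was not tested. For stellate cells, the other non-hepatocyte source of Apoe on the lists, limma called 0 of 7 markers in PRF 50 vs. HFD. Of these, 1 had an unadjusted p under 0.05, beside 20.2% of all genes. Their summed level lay between 97.7 and 171 in the PRF 50 mice and between 107 and 134 in the HFD mice, with Dcn the most abundant.

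Apoa4 encodes an apolipoprotein of the intestine and liver that is carried on triglyceride-rich particles and HDL. Its values were 6.56, 5.88, and 6.81 in the ND mice, 9.52, 9.72, and 8.58 in the HFD mice, and 6.61, 7.54, and 7.37 in the PRF 50 mice. Each HFD liver was above each ND and PRF 50 liver by at least 1 log2 unit, and PRF 50 and ND mice overlapped. Apoa4 rose by 2.86 in HFD vs. ND (standard error 0.34, adjusted p = 0.011) and fell by 2.1 in PRF 50 vs. HFD (standard error 0.35, adjusted p = 0.0299). The remaining difference of 0.76 between PRF 50 and ND did not pass the threshold (standard error 0.3, adjusted p = 0.366), nor did 0.83 without ND mouse 6 (adjusted p = 0.493) or 0.49 without ND mouse 7 (adjusted p = 0.589). Without ND mouse 6 the rise was 2.93 (adjusted p = 0.0404). The rise was called with each of the 6 mice left out in turn, with adjusted p between 0.00906 and 0.0404. The fall in PRF 50 vs. HFD kept a size between -2.44 and -1.81 but was called in 1 of 6 such fits. Its adjusted p was 0.069, 0.0932, and 0.0529 without HFD mouse 1, 2, or 3 and 0.0766 and 0.0555 without PRF 50 mouse 3 or 10. With no minimum level, the adjusted p was 0.0505 in HFD vs. ND and 0.068 in PRF 50 vs. HFD.

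**Figure D3:**
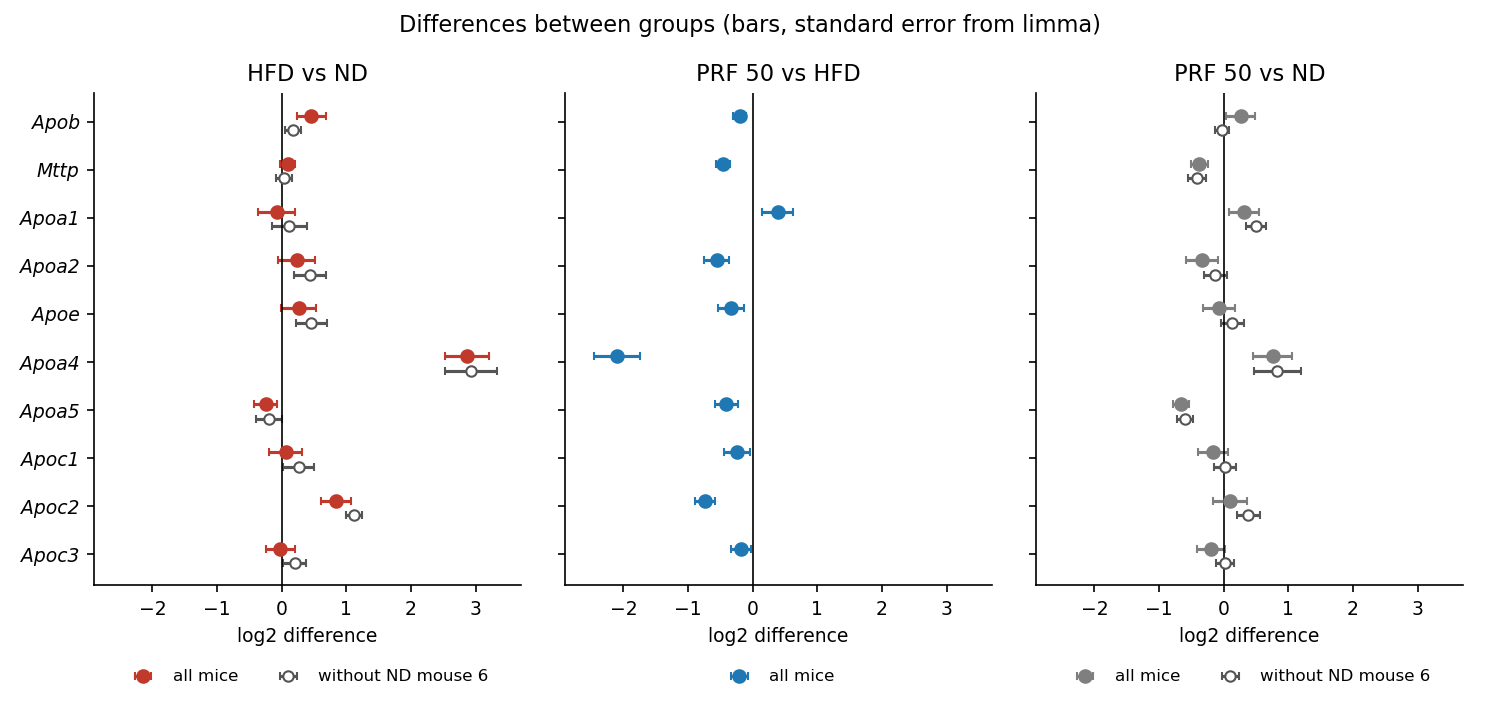
Log2 differences of the 10 genes in each comparison with standard errors from limma, with filled points for all mice and open points without ND mouse 6. Apoa4 stands at 2.86 in HFD vs. ND and -2.1 in PRF 50 vs. HFD, and the other 9 genes lie between -0.74 and 1.12.

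The start regions of Apoa4 and of its neighbour Apoa1 are shown because these genes share a cluster and gave unlike results, together with that of Apoc2, which was second in range to Apoa4. The windows hold 250 bases before to 50 after the start site in RefSeq on GRCm38.p6, and 8 of the 10 members had a window (Apoc1 and Apoc3 have no entry). The distances between genes given below use the start in GENCODE instead. The RefSeq start lies 148 bases downstream of the GENCODE start for Apoa4, 50 for Apoa1, and 0 for Apoc2. By GENCODE, part of the Apoa4 and Apoa1 windows before the RefSeq start is therefore transcribed. Capitals mark the matches, on either strand, of 6 motifs known from liver genes. They are the TATA box TATAAA, the HNF4-type element CAAAGNNCA, the nuclear receptor half-site AGGTCA, the HNF1 half-site GTTAAT, the forkhead core TGTTTNC, and the E-box CACGTG. The motifs were chosen with these windows in view. Apoa4 is on the plus strand at chr9:46240594-46240893, Apoa1 on the plus strand at chr9:46228380-46228679, and Apoc2 on the minus strand at chr7:19677892-19678191.
Apoa4: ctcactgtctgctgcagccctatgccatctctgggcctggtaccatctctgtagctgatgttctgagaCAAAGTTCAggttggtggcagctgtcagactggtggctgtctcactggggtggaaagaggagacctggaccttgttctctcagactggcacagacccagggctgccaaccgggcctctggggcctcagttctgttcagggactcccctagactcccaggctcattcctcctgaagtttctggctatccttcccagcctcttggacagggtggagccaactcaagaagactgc
Apoa1: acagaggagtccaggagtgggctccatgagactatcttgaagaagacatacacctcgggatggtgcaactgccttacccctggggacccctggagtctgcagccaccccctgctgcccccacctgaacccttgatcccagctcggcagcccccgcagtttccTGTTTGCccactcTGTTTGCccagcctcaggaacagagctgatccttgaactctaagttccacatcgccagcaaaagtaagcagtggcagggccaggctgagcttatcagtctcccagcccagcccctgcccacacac
Apoc2: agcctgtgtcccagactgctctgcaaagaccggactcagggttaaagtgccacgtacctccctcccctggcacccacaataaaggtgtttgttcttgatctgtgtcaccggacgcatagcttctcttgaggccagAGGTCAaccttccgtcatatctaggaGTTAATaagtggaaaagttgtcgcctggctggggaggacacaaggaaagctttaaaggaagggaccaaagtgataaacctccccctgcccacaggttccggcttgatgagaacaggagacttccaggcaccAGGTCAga
The Apoa4 window held 1 HNF4-type element, which was found in 6.36% of 32851 windows in the table, and none of the other motifs. The Apoa1 window held 2 forkhead cores (20.5% of windows hold at least 1), and the Apoc2 window held 2 nuclear receptor half-sites (16.3%) and 1 HNF1 half-site (7.1%). Of the other members, the HNF4-type element was found in Apob. The TATA box is present in 13.6% and the E-box in 7.15% of windows. A match describes the letters only.

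Apoa5, whose product raises the clearance of plasma triglyceride through lipoprotein lipase, was 9.42, 9.28, and 9.22 in the ND mice, 9.42, 8.99, and 8.77 in the HFD mice, and 8.78, 8.52, and 8.64 in the PRF 50 mice. The PRF 50 mice lay below all ND mice, and the HFD mice reached into both groups. The difference was -0.66 in PRF 50 vs. ND (standard error 0.13, adjusted p = 0.0945), -0.41 in PRF 50 vs. HFD (standard error 0.18, adjusted p = 0.254), and -0.25 in HFD vs. ND (standard error 0.18, adjusted p = 0.575). Without ND mouse 6, the first of these was -0.6 (adjusted p = 0.201) and the last -0.19 (adjusted p = 0.687). Without HFD mouse 1 the difference was -0.23 in PRF 50 vs. HFD and -0.43 in HFD vs. ND, and the latter was -0.1 without HFD mouse 3 and -0.11 after quantile normalization.

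Apoc2 encodes the cofactor of lipoprotein lipase, and Apoc3 and Apoc1 encode proteins that slow triglyceride clearance. Apoc2 was 8.70, 7.93, and 7.79 in the ND mice, 8.97, 9.09, and 8.88 in the HFD mice, and 8.38, 8.43, and 7.91 in the PRF 50 mice. All HFD livers lay above all others, and ND mouse 6 was close to them. Apoc2 differed by 0.84 in HFD vs. ND (standard error 0.23, adjusted p = 0.154). Without ND mouse 6 the difference was 1.12 and passed the threshold (adjusted p = 0.0249), as it did after the length correction (0.93, adjusted p = 0.046) and after quantile normalization (0.91, adjusted p = 0.0471). In the other fits its adjusted p reached 0.407, without ND mouse 7. The PRF 50 mice differed from the HFD mice by -0.74 (standard error 0.16, adjusted p = 0.0531), with adjusted p = 0.0424 at a minimum of 10 FPKM and 0.0491 in eBayes without a trend, and up to 0.167 (without HFD mouse 2) in the other fits. The tables also list Apoc4 and a read-through transcript of Apoc4 and Apoc2, at 10.94 and 3.28 on average in the HFD group. The read-through transcript spans both genes, so its reads could be shared with Apoc2, and the Apoc2 value is uncertain.

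Apoc3 was 12.40, 11.76, and 11.72 in the ND mice, 12.08, 11.93, and 11.82 in the HFD mice, and 11.73, 11.75, and 11.81 in the PRF 50 mice. Apoc1 was 14.02, 13.48, and 13.40 in the ND mice, 13.91, 13.58, and 13.60 in the HFD mice, and 13.54, 13.35, and 13.47 in the PRF 50 mice. In both genes ND mouse 6 was the highest liver, and the PRF 50 values were just under those of HFD. The differences were, in PRF 50 vs. HFD, -0.18 for Apoc3 (standard error 0.15, adjusted p = 0.561) and -0.24 for Apoc1 (standard error 0.2, adjusted p = 0.561), or -0.11 and -0.13 without HFD mouse 1 and -0.09 and -0.14 with the length correction, and 0.02 for Apoc1 after quantile normalization. In HFD vs. ND they were -0.02 and 0.06, and 0.2 and 0.26 without ND mouse 6 (adjusted p = 0.624 and 0.636). The sign of these small differences also turned for Apoc3 without HFD mouse 3 (0.04) and for Apoc1 without ND mouse 7 (-0.01), ND mouse 9 (-0.05), or HFD mouse 1 (-0.04). Over all mice left out in turn, they ran from -0.14 to 0.2 for Apoc3 and from -0.05 to 0.26 for Apoc1. In PRF 50 vs. ND they were -0.2 and -0.17, or 0.02 for each gene without ND mouse 6 and -0.32 and -0.29 without ND mouse 9.

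The make-up of the apolipoprotein transcripts was then compared within each liver, as the share of each gene in the summed linear level of the 10, which does not depend on scaling between libraries. Apoa2, Apoe, Apoc1, and Apoa1 together held between 90.4% and 91.6% of this sum. The Apoa1 share was 14.2%, 13.2%, and 15.5% in the ND mice, 14.3%, 12%, and 10.3% in the HFD mice, and 19.3%, 19%, and 19.2% in the PRF 50 mice. The Apoa2 share was 31.1%, 31.2%, and 29.4% in the ND mice, 31.2%, 32.2%, and 32.5% in the HFD mice, and 24.8%, 27.1%, and 26.7% in the PRF 50 mice. Each PRF 50 liver thus had a larger Apoa1 share and a smaller Apoa2 share than any liver of the other groups, ND mouse 6 included. The Apoa4 share was between 0.102% and 0.214% in ND, 0.591% and 1.25% in HFD, and 0.166% and 0.326% in PRF 50. The shares in a liver are parts of the same sum and the comparisons share groups, so tests of shares are not independent. Of 30 tests of a share between 2 groups, 13 were separated, where chance gives 10% for 3 values against 3. Besides those above, these were Apoa2 and Apoc2 higher and Apoc1 and Apoc3 lower in HFD vs. ND, Apoc2 lower and Apoc3 higher in PRF 50 vs. HFD, and Apoa5 lower in PRF 50 vs. ND. Each of the 13 gave p = 0.1 in a two-sided exact permutation test, the smallest that 3 mice against 3 allow, and 0.231 after adjustment over 30 such tests. The 10 genes together made up 12.7%, 12.3%, and 12.2% of the summed linear level of all genes except Rnu6 in the HFD mice, 10.1%, 10.7%, and 10.5% in the PRF 50 mice, and 12.5%, 10.4%, and 9.35% in the ND mice. Rnu6 was left out because it was listed at 22.44 in HFD mouse 2.

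**Figure D4:**
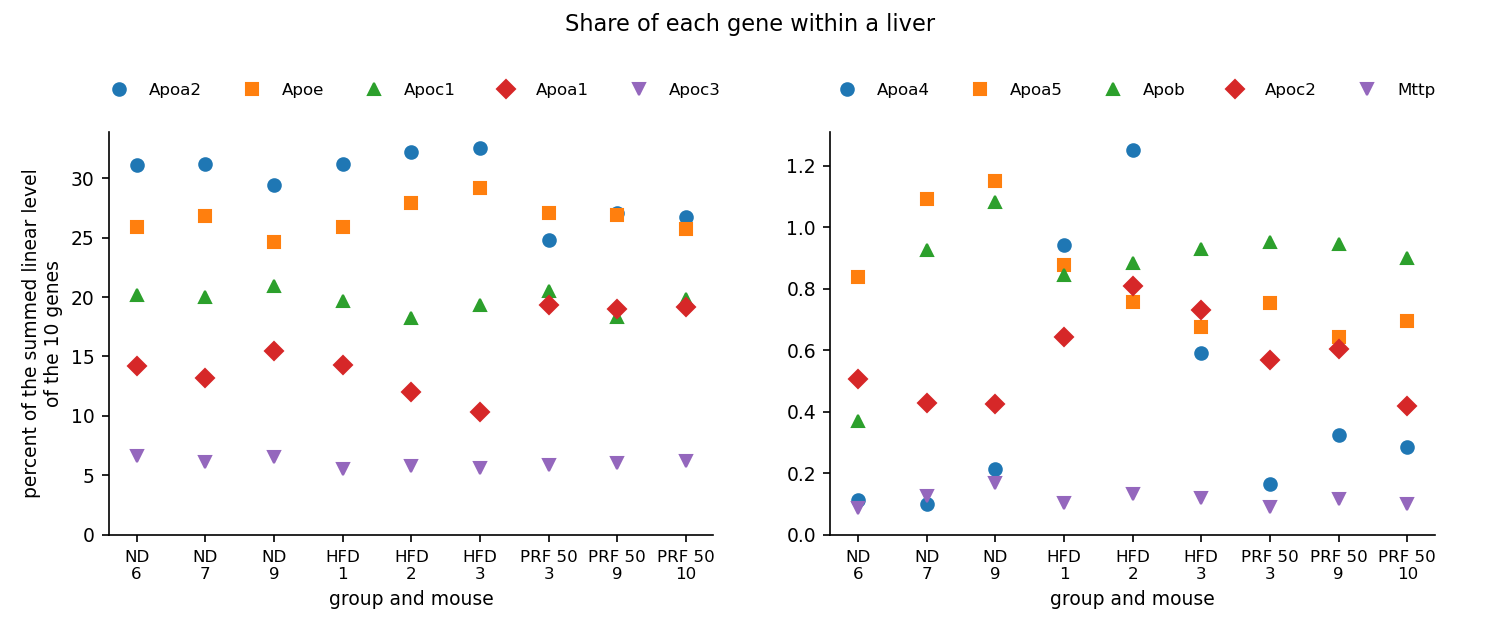
Share of each gene in the summed linear level of the 10 genes, in percent, for each mouse, with the 5 largest shares on the left and the other 5 on the right. The Apoa1 share lies between 19% and 19.3% in the PRF 50 mice and at most at 15.5% elsewhere.

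Members lie in gene clusters on chromosomes 9 and 7. Apoa1, Apoc3, Apoa4, and Apoa5 lie within 40.1 kb of each other by their start sites on chromosome 9, and the start of Apoa4 is 5.06 kb from that of Apoc3. Within a liver, Apoa1 exceeded Apoa4 by 6.94, 7, and 6.17 in the ND mice, by 3.93, 3.26, and 4.12 in the HFD mice, and by 6.85, 5.86, and 6.05 in the PRF 50 mice on the log2 scale. Apoa1 exceeded Apoc3 by 1.72, 1.65, and 1.62 in the PRF 50 mice and by 0.87 to 1.37 in all other livers. Apoa4 minus Apoa5 was -2.86, -3.41, and -2.41 in the ND mice, 0.1, 0.72, and -0.19 in the HFD mice, and -2.17, -0.97, and -1.27 in the PRF 50 mice, so that all 3 groups were apart. Apoa1 minus Apoa5 was 4.67, 4.88, and 4.78 in the PRF 50 mice and at most 4.08 elsewhere. HFD mice did not overlap the other groups in Apoa1 minus Apoa4, nor PRF 50 mice in Apoa1 minus Apoc3 and Apoa1 minus Apoa5. Over both clusters, 14 of 27 tests of such a difference were separated, where chance gives 10% for 3 values against 3. The pairs share genes and the comparisons share groups, so these tests are not independent. Every pair with Apoa4 was separated in HFD vs. ND and in PRF 50 vs. HFD. No share over other gene pairs is given here. Apoc3 minus Apoa5 and Apoe minus Apoc1 were separated in no comparison. Each separation gave an exact permutation p = 0.1, or 0.193 after adjustment over 27 such tests. The first is the smallest p that 3 mice against 3 allow, so no ratio could pass the threshold. Of the other genes within 100 kb of this cluster, Zpr1 and Bud13, named after their values were seen, were tested and neither was called, with differences of -0.71 and -0.46 in HFD vs. ND (adjusted p = 0.19 and 0.247).

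On chromosome 7, Apoe, Apoc1, and Apoc2 lie within 21.2 kb by their start sites, and none of the tested neighbours within 100 kb was called by limma in any comparison. Apoe exceeded Apoc2 within a liver by 5.67, 5.96, and 5.85 in the ND mice, 5.33, 5.1, and 5.32 in the HFD mice, and 5.57, 5.47, and 5.93 in the PRF 50 mice. The HFD mice had the smallest gaps, and ND and PRF 50 mice overlapped. Near Apoa2 on chromosome 1, Nr1i3, the gene of the xenobiotic receptor CAR, was lower in PRF 50 vs. HFD by -0.93 (standard error 0.17, adjusted p = 0.0336), and Fcer1g, an immunoglobulin receptor subunit of myeloid cells, was higher by 1.12 (standard error 0.19, adjusted p = 0.0321). The starts of these genes are 11.1 kb before and 9.31 kb after that of Apoa2. The adjusted p of Nr1i3 was 0.0732 without HFD mouse 1, 0.115 without HFD mouse 3, 0.0951 without PRF 50 mouse 3, and 0.076 without PRF 50 mouse 10, and that of Fcer1g was 0.0716 without HFD mouse 1, 0.0944 without HFD mouse 2, 0.0957 without HFD mouse 3, and 0.0525 without PRF 50 mouse 10.

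**Figure D5:**
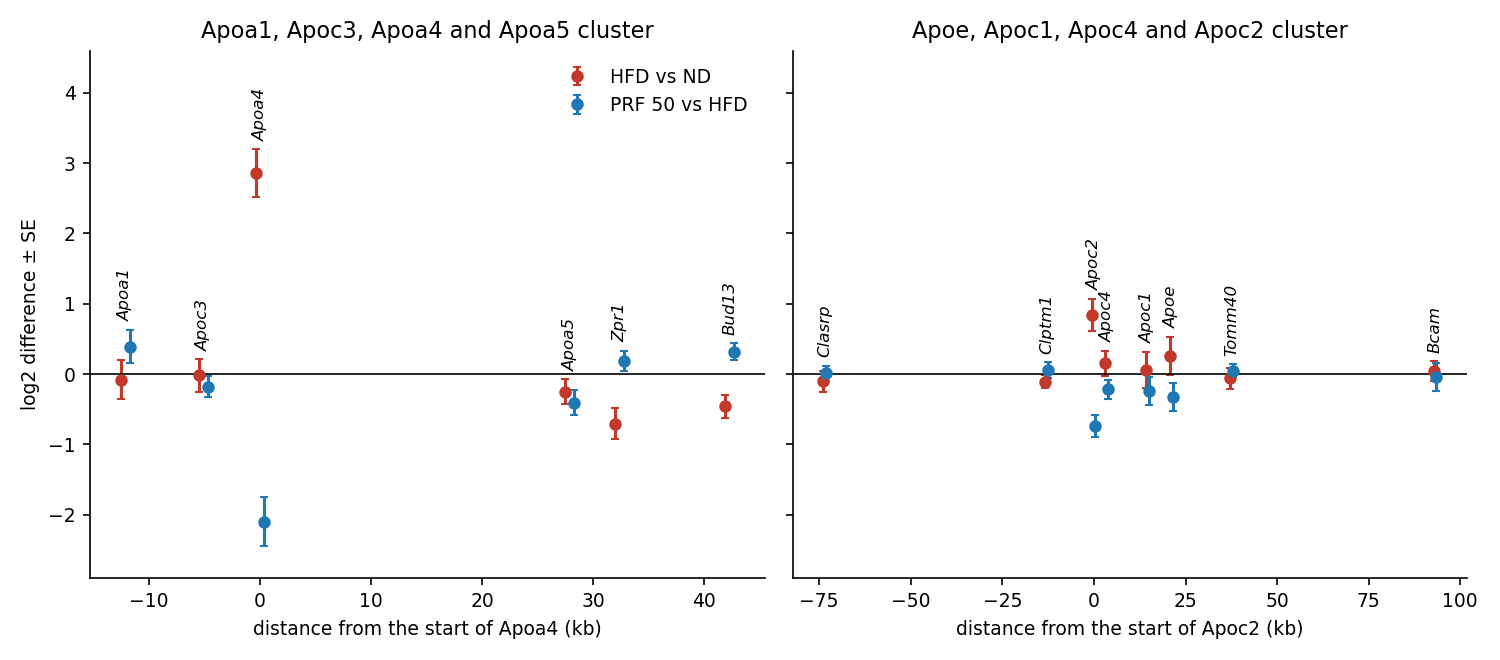
Log2 differences with standard errors of the genes around Apoa4 and around Apoc2 against the distance of their start sites in kb, with the 2 comparisons drawn slightly apart. Apoa4 stands at 2.86 and -2.1, and the genes on either side of it lie between -0.71 and 0.39.

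Among 10047 other genes whose mean FPKM reached 1, the pattern of Ddo (D-aspartate oxidase) was most like that of Apoa4, with Pearson's r = 0.987 and Spearman's rho = 0.95 over 9 livers. Gtpbp8 (r = 0.965, rho = 0.917) and Vps26a (r = 0.956, rho = 0.917) followed. The 9 livers form 3 groups, so these coefficients mainly reflect the group levels. Ddo was 2.49 ± 0.07, 3.26 ± 0.1, and 2.75 ± 0.15 (SD, n = 3) in the ND, HFD, and PRF 50 groups. In limma it was called higher in HFD vs. ND (adjusted p = 0.0149) and lower in PRF 50 vs. HFD (adjusted p = 0.0462), directions that follow largely from its choice by likeness to Apoa4. Gtpbp8 (adjusted p = 0.0723 and 0.11) and Vps26a (0.294 and 0.183) were not called. For Ddo the adjusted p was 0.075 without ND mouse 7, 0.0759 without HFD mouse 2, and 0.0537 without HFD mouse 3 in the first comparison and 0.0952 without HFD mouse 1, 0.153 without HFD mouse 2, 0.109 without HFD mouse 3, 0.11 without PRF 50 mouse 3, 0.0725 without PRF 50 mouse 9, and 0.0756 without PRF 50 mouse 10 in the second.

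The other genes of lipoprotein metabolism were taken from 6 lists. Limma called 0 of them in HFD vs. ND, 5 in PRF 50 vs. HFD, and 1 in PRF 50 vs. ND. The shares over all genes were 1.33%, 3.59%, and 0.458%. Of 23 genes of VLDL assembly and secretion, limma called 0 in HFD vs. ND. There, 5 had an unadjusted p under 0.05, beside 15.1% of all genes. In PRF 50 vs. HFD limma called 1 higher and 2 lower, beside 3.59% of all genes, with a list median of -0.11. The carboxylesterase gene Ces1d, whose product mobilises stored triglyceride for VLDL, was 8.56, 8.51, and 8.69 in the ND mice, 9.34, 8.60, and 8.68 in the HFD mice, and 7.38, 7.45, and 7.46 in the PRF 50 mice. Every PRF 50 value lay below every other value, with a difference of -1.44 in PRF 50 vs. HFD (standard error 0.2, adjusted p = 0.0185) and -1.16 in PRF 50 vs. ND (standard error 0.11, adjusted p = 0.0116). Sar1b, a GTPase of the coat that carries large lipoproteins out of the endoplasmic reticulum, fell by 0.62 in PRF 50 vs. HFD (standard error 0.11, adjusted p = 0.0336). Sort1, a sorting receptor that binds apolipoprotein B, rose by 0.81 (standard error 0.14, adjusted p = 0.0322). The calls in PRF 50 vs. HFD were lost in some of the 6 fits with 1 mouse left out. The adjusted p of Ces1d was 0.0516 without HFD mouse 2, 0.0539 without HFD mouse 3, and 0.0611 without PRF 50 mouse 3, and in PRF 50 vs. ND it was 0.0734 without ND mouse 7 and 0.0671 without PRF 50 mouse 3. That of Sar1b was 0.0609 without HFD mouse 1, 0.1 without HFD mouse 2, 0.0931 without HFD mouse 3, 0.0961 without PRF 50 mouse 3, and 0.0745 without PRF 50 mouse 9. That of Sort1 was 0.0701 without HFD mouse 1, 0.0708 without HFD mouse 2, 0.103 without HFD mouse 3, 0.0876 without PRF 50 mouse 3, and 0.0668 without PRF 50 mouse 10.

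Of 32 transcription factors, 30 were tested. In HFD vs. ND none of the 30 was called by limma, and 11 had an unadjusted p under 0.05, beside 15.1% of all genes. Creb3l3 and Hnf4a, known activators of apolipoprotein genes, were named here after their values were seen. Creb3l3 differed by 0.23 in HFD vs. ND (adjusted p = 0.488) and -0.17 in PRF 50 vs. HFD (adjusted p = 0.391), and Hnf4a by -0.32 and 0.09 (adjusted p = 0.31 and 0.754). Of 11 tested genes of plasma remodelling, endothelial lipase (Lipg), which acts on HDL, was the only one called in PRF 50 vs. HFD, lower by -0.9 (standard error 0.13, adjusted p = 0.0238). Its adjusted p was 0.0512 without HFD mouse 1, 0.0723 without HFD mouse 2, 0.0799 without HFD mouse 3, 0.0735 without PRF 50 mouse 3, and 0.0501 without PRF 50 mouse 10. No gene was called in any comparison among 15 tested other apolipoprotein genes, 12 receptors, and 6 genes of lipid efflux. Of these, 4, 3, and 1 had an unadjusted p under 0.05 in PRF 50 vs. HFD, beside 20.2% of all genes. Their medians in PRF 50 vs. HFD were 0.23, 0.23, and -0.02 beside -0.02 over all genes.

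The remaining cell type lists gave no call in limma with all mice. Without HFD mouse 1, 1 hepatocyte and 1 stellate cell marker were called in HFD vs. ND, beside 140 of 10003 genes. In PRF 50 vs. HFD, an unadjusted p under 0.05 was found for 3 of 6 tested hepatocyte markers, beside 20.2% of all genes. It was found for 0 of 6 sinusoidal endothelial, 0 of 1 cholangiocyte, and 0 of 3 blood markers. The hepatocyte markers had a median log2 difference of 0.49 in PRF 50 vs. HFD, with 5 of 6 above 0, whereas 9 of the 10 members were below 0 there, and a median of -0.3 in HFD vs. ND. The exception in PRF 50 vs. HFD was Ttr, the most abundant of them, at 12.74, 12.62, and 12.53 in the HFD mice and 12.1, 11.97, and 11.98 in the PRF 50 mice, without overlap. None of these marker differences was called. The most abundant genes were Clec4g (3.14 to 5.46), Spp1 (4.56 to 5.29), and Hba-a1 (5.17 to 7.21) for the endothelial, cholangiocyte, and blood lists.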

How the data were processed

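The deposited log2 values were made by the authors, who used FASTX_Trimmer and BBMap for trimming and TopHat for mapping to mm10, and computed FPKM with Cufflinks and a geometric normalization stated to be done with EdgeR. Tool versions and the annotation are not given in the sources used here. The added 1 was inferred from a lowest value of exactly 0. Sequencing depth is unknown because no read counts were used, and between 14372 and 14980 genes per library lay above 0. Each comparison was fitted in limma 3.58.1 (R 4.3.3, eBayes with a trend) on the 6 mice of its 2 groups, over genes whose mean FPKM reached 1, with p-values adjusted by Benjamini-Hochberg over all of them and a threshold of 0.05. Shares and ratios within a liver were compared by exact permutation tests, adjusted over the 30 shares and the 27 ratios. Tables and figures were made with Python 3.11.15, pandas 2.3.3, SciPy 1.17.1, and matplotlib 3.10.9. Gene positions and lengths came from GENCODE vM21, and members were matched by symbol.

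The members and lists were chosen with earlier results of these data known. Genes named are the 10 members, list and marker genes and genes within 100 kb of a member with an adjusted p under 0.05, the most abundant gene of each marker list, and the 3 genes most like a called member. Creb3l3, Hnf4a, Zpr1, and Bud13 fall outside this rule and were chosen after their values were seen. Of the genes this rule names, 1 is not reported here. Alternatives were a fit of all 9 mice, a pseudocount of 0.1, no minimum level or 10 FPKM, quantile normalization, scaling by medians of ratios, no trend in eBayes, and each mouse left out in turn. A lowess correction for transcript length, the counts of non-overlapping members and list genes and the member medians under each setting, and the shares with each mouse left out were added after seeing the data.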

Additional observations from a re-analysis of the deposited data

How the results depend on the processing

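No paired analysis was possible because the groups hold different animals and the mouse numbers do not pair them. Of 420 alternative values of the member differences, 385 kept their direction and call, 7 were weaker, 7 stronger, and 21 reversed. The cause of these changes was not tested. Apoa4 was the only member called with all mice, so for the other members keeping the call meant staying uncalled. All 7 weaker values were of Apoa4. They arose with no minimum in HFD vs. ND and in PRF 50 vs. HFD. The others came in PRF 50 vs. HFD without HFD mouse 1, 2, or 3 or PRF 50 mouse 3 or 10. In HFD vs. ND, 133 genes were called, 37 with no minimum and 35 to 140 with each mouse left out in turn. Called members numbered 1, and 0 with no minimum, 2 after quantile normalization, 2 with the length correction chosen after seeing the data, and 1 to 2 with a mouse left out. Non-overlapping members numbered 3, and 5 with the length correction (23.1% of all genes) and 3 to 7 with a mouse left out, where chance gives 20% and 26.6% to 35.8% of all genes did not overlap. Called pathway list genes numbered 0 in limma, and 1 at a minimum of 10 FPKM, 1 after quantile normalization, and 1 with the length correction. Over all genes, 89 of 4186, 150 of 10046, and 149 of 9978 were called in these 3 settings. With no minimum it was 37 of 16489. In PRF 50 vs. HFD, 362 genes were called, 126 with no minimum and 15 to 242 with a mouse left out. Called members numbered 1, and 0 with no minimum, 3 at a minimum of 10 FPKM, 3 without a trend, and 0 to 1 with a mouse left out. Over all genes, 126 of 16525 were called with no minimum, 252 of 4139 at a minimum of 10 FPKM, and 361 of 10084 without a trend. Non-overlapping members numbered 8, and 5 after quantile normalization, and list genes 5, and 1 with no minimum and 0 to 5 with a mouse left out. In PRF 50 vs. ND, 46 genes were called, 102 in a fit of all 9 mice, 11 with no minimum, and 4 to 71 with a mouse left out. Non-overlapping members numbered 2, and 2 to 4 with a mouse left out (27.5% to 35.3% of all genes). Called list genes numbered 1, and 2 after quantile normalization and 0 to 4 with a mouse left out. Over all genes, 38 of 10027 were called after quantile normalization. After quantile normalization, the difference was 0 for Apoa2 and 0.08 for Apoc3 in HFD vs. ND, 0.02 for Apoc1 in PRF 50 vs. HFD, and 0.02 for Apoc1 and 0.01 for Apoe in PRF 50 vs. ND. With the length correction it was 0.07 for Apoc3 in HFD vs. ND and 0.03 for Apoc1 and 0.02 for Apoe in PRF 50 vs. ND. With a mouse left out, HFD vs. ND gave -0.28 to 0.12 for Apoa1, -0.05 to 0.26 for Apoc1, and -0.14 to 0.2 for Apoc3. PRF 50 vs. ND gave -0.02 to 0.42 for Apob, -0.29 to 0.02 for Apoc1, -0.08 to 0.38 for Apoc2, -0.32 to 0.02 for Apoc3, and -0.24 to 0.13 for Apoe. The mean share of each member in each group moved by less than its SD when the added 1 was not subtracted.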

Other observations

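The values are FPKM without read counts, so the counting error of a gene in a library is unknown. Groups of 3 mice give few degrees of freedom, and bulk RNA says nothing about the amounts of apolipoproteins in plasma or the secretion of particles. The tables do not say how reads were divided between Apoc2 and the read-through transcript of Apoc4 and Apoc2.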
